A study of Homo sapiens with 4 samples.

Results

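The IL-6 family is a group of cytokines and receptors that share the signal-transducing receptor chain gp130, and 10 of its genes were followed here: the ligands IL6, IL11, LIF, OSM and CLCF1, the binding receptors IL6R and CNTFR, and the signaling receptors IL6ST (which encodes gp130), LIFR and OSMR. They were taken as the genes to which the RefSeq accession of a probe was matched, 10 of 16422 genes on the array, with 14 probes in all. Gene expression had been measured with 1 Agilent one-color array per state, 4 arrays in all, in 2 HER2-positive breast cancer cell lines. The states were parental SkBr3 cells and parental BT474 cells, both labeled as vehicle-treated, the lapatinib-resistant clone SkBr3/Lap#6, and the lapatinib-resistant clone BT474/Lap#3. Lapatinib is a kinase inhibitor of EGFR and HER2. Resistance was selected with rising lapatinib up to 1 μM, the labels give lapatinib as the treatment of the clones, and all cells were grown in DMEM/F12 medium. Each resistant line is 1 clone, so a difference from the parent can belong to that clone, to resistance or to the drug in the medium, and these cannot be told apart. In the labels the clone of SkBr3 has number 3 and that of BT474 number 6, the reverse of the names used by the study and here.

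IL-6, IL-11, LIF, oncostatin M (OSM) and cardiotrophin-like cytokine factor 1 (CLCF1) are secreted proteins that assemble receptor complexes around gp130. IL-6 binds its alpha receptor IL6R and then gp130, LIF pairs LIFR with gp130, OSM can pair OSMR with gp130, and CLCF1 uses CNTFR with LIFR and gp130. The complexes activate JAK kinases and STAT3, and STAT3 induces SOCS3, an inhibitor of the same receptors. In breast cancer the family is known for autocrine and paracrine signaling through STAT3, and IL6 is a classical target gene of NF-κB and C/EBP factors.

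The promoters of IL6, LIFR and OSMR are shown because IL6 and LIFR were called higher in SkBr3/Lap#6, because OSMR is the neighbor of LIFR and was called there when no filter on dim signals was set, and because the study's question about NF-κB bears on IL6. Each sequence holds the 250 bases before a RefSeq start site in GRCh38.p14, written 5′ to 3′ on the strand of the gene. Capitals mark matches, on either strand, to an NF-κB motif (GGGAN joined to TTTCC), a C/EBP motif (TTGCNNAA) or a STAT motif (TTCNNNGAA).
IL6, chr7:22726950-22727199, plus strand: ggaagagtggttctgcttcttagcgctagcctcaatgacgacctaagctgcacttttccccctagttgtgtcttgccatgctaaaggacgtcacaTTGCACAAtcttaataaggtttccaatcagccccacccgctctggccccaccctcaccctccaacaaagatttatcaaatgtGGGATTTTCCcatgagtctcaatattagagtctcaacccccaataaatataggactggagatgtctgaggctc
LIFR, chr5:38557468-38557717, minus strand: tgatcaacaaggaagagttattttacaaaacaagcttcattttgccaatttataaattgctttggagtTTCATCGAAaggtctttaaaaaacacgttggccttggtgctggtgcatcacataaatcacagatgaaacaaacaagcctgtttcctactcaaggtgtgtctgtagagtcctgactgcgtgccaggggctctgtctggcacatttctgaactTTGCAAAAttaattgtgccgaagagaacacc
LIFR, chr5:38595406-38595655, minus strand: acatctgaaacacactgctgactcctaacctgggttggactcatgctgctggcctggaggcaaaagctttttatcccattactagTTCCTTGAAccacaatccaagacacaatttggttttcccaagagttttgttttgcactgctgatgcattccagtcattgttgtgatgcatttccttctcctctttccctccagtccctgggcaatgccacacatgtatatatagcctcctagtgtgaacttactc
OSMR, chr5:38845762-38846011, plus strand: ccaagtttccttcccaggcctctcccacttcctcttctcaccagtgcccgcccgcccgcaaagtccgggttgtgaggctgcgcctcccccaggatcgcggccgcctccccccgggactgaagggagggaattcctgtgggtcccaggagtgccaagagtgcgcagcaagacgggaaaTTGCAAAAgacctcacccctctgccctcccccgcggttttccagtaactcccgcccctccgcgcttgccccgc
The IL6 window held TTGCACAA at -155 to -148 and GGGATTTTCC at -73 to -64, counted from the start site with -1 as the last base before it. The first LIFR window held TTCATCGAA at -182 to -174 and TTGCAAAA at -31 to -24, and the second held TTCCTTGAA at -165 to -157. The OSMR window held TTGCAAAA at -73 to -66. Of 35116 RefSeq windows of the same length, 0.527% held the NF-κB motif, 9.05% the C/EBP motif and 6.57% the STAT motif, and no 2 of the matches in these windows overlapped. The remaining LIFR window and the windows of IL6R, IL6ST, IL11 and CNTFR held none of these letters. Windows were matched for 7 of the 10 genes, and LIF, OSM and CLCF1 had no entry. Along the genome LIFR and OSMR are neighbors on chromosome 5, with 0 protein-coding genes between them, and LIF and OSM are neighbors on chromosome 22, also with 0 between them. A match to a motif is a description of the sequence.

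Signals below are processed signals in array units. A log2 difference compares a clone with its parent after the 75th percentile of each array was subtracted, with the percentile at 1115 units on the array of SkBr3, 2074 on that of SkBr3/Lap#6, 1158 on that of BT474 and 1681 on that of BT474/Lap#3, so the raw signals of a clone look higher than its differences. The ± value is the error that the scanner software gives for the signals, carried over to the log2 difference, and it covers only measurement error within the arrays. For bright probes that error was nearly the same share of the signal: 133.5 of 1335 units for IL6R in SkBr3, and 590 of 5901 for LIFR in SkBr3/Lap#6. These probes had 1 spot each, so it is not a spread measured over repeated spots. With 1 array per state there is no spread between cultures and no test, and a gene was called higher or lower when it differed at least 2-fold. A signal that the software did not mark as well above background is only an upper bound, and a fold against it is a lower limit. The software marked 66.6% to 74.0% of probes as well above background on the 4 arrays, and 0 spots were saturated. The array of SkBr3/Lap#6 was on a slide of its own and the other 3 shared a slide, so slide and clone cannot be told apart in the comparison of SkBr3/Lap#6 with SkBr3.

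Of 7 luminal and HER2 markers, 7 were well above background in BT474 and BT474/Lap#3 and 6 in SkBr3 and SkBr3/Lap#6, where CDH1, which encodes E-cadherin, was not. Divided by the 75th percentile of the array, the summed signal of these markers was lower in both clones. It was 488 for SkBr3/Lap#6 against 818 for its parent, and 512 for BT474/Lap#3 against 763. ERBB2, which encodes HER2, was called lower in SkBr3/Lap#6 (log2 -1.90), as was GRB7 (-1.19). KRT8, KRT18, KRT19 and EPCAM were not called there. No marker of this list was called in BT474/Lap#3, where ERBB2 was at -0.65. Markers of other cell types were also read. PTPRC (leukocytes), KDR (endothelium) and COL1A2, DCN and LUM (fibroblasts) were at background on all 4 arrays. Other genes of these lists moved with the family in SkBr3/Lap#6: COL3A1 was at 4.10 units in SkBr3 and 347 in its clone, PDGFRB at 4.17 and 64.8, CDH5 at 58.4 and 915, and PECAM1 at 3.43 and 160.1. In all, 3 of 6 fibroblast markers were well above background in SkBr3/Lap#6 against 1 on each of the other 3 arrays. THY1 made up most of their summed signal and was lower relative to the array, at -0.52 on the log2 scale, so that the sum divided by the 75th percentile of the array was 1.24 in SkBr3/Lap#6, 1.504 in SkBr3, 1.12 in BT474 and 1.03 in BT474/Lap#3. Endothelial markers numbered 3 of 4 against 1 to 2, and their scaled sum was 0.675 against 0.173 in SkBr3, 0.785 in BT474 and 0.395 in BT474/Lap#3. Leukocyte markers numbered 3 of 5 against 2 to 4, with a scaled sum of 0.185 against 0.470, 0.139 and 0.163. Their part in the results below was not tested.

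Among the 10 genes, 6 were well above background by at least 1 probe in SkBr3 against 8 in SkBr3/Lap#6, with 6 in BT474 against 9 in BT474/Lap#3. IL6R, IL6ST, IL11, LIFR and CLCF1 were above background on all 4 arrays. IL6 was so on the array of SkBr3/Lap#6 alone, OSMR on all but that of SkBr3, LIF on all but that of BT474, and OSM and CNTFR on that of BT474/Lap#3 alone. Read by receptor complex, both subunits of the IL-6 receptor and both of the LIF receptor were above background on all 4 arrays. The OSM receptor of OSMR and gp130 had 1 of its 2 chains in SkBr3 and 2 on the other 3 arrays, and the CLCF1 receptor had 3 of 3 chains in BT474/Lap#3 and 2 elsewhere, since CNTFR was not well above background there. CNTFR read 18.8 units in BT474/Lap#3, where the lowest signal well above background was 14.6, so a change from BT474 is not shown.

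**Figure D1:**
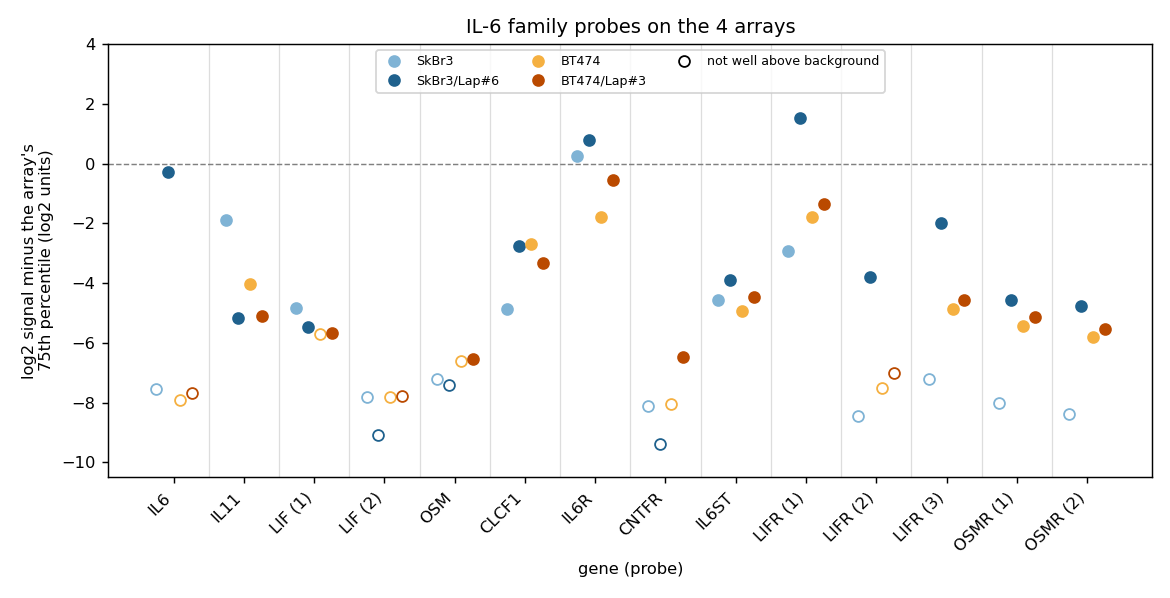
Log2 signal minus the 75th percentile of the array (y axis, log2 units) for the 14 probes of the 10 genes (x axis), 1 point per array, with open points not well above background. IL6 and LIFR in SkBr3/Lap#6 lie far above their values in SkBr3, and IL11 lies highest in SkBr3.

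In SkBr3/Lap#6 against SkBr3, 4 of the 10 genes were called higher (IL6, LIFR, CLCF1 and OSMR) and 1 lower (IL11), while 10.5% of all 16422 genes were called higher and 11.2% lower. The median log2 difference was 1.11 over the 8 genes with a value and -0.06 over all genes with a value. In BT474/Lap#3 against BT474, 1 of the 10 was called higher (IL6R) and 1 lower (IL11), against 7.03% and 4.83% of all genes. There the median was 0.32 over the 7 genes with a value and -0.08 over all genes with a value. A filter that kept genes with a signal of at least 100 units on any array left 6 of the 10 and 12136 of all genes. LIF, OSM, OSMR and CNTFR did not reach 100 units, and IL6 and IL6ST reached them through SkBr3/Lap#6 alone, the array on which they were highest, as IL11 did through SkBr3 alone. With the filter the genes called in SkBr3/Lap#6 were the same but for OSMR, 3 higher and 1 lower of 6 against 13.4% and 12.9% of all genes, and in BT474/Lap#3 they were the same, against 8.56% and 5.16%. IL11 was the 1 gene of the family called in the same direction in both clones. Over all 12136 genes, 299 were called higher in both clones, 147 lower in both and 311 in opposite directions. How the calls of all genes split depended on the scaling: with each array centered on its median, genes called higher made up 60.4% of the calls in SkBr3/Lap#6 rather than 51.0%, and 45.6% in BT474/Lap#3 rather than 62.4%, and the median over all genes moved to 0.10 and -0.29. All calls of the family in the 2 clones were kept under that scaling.

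**Figure D2:**
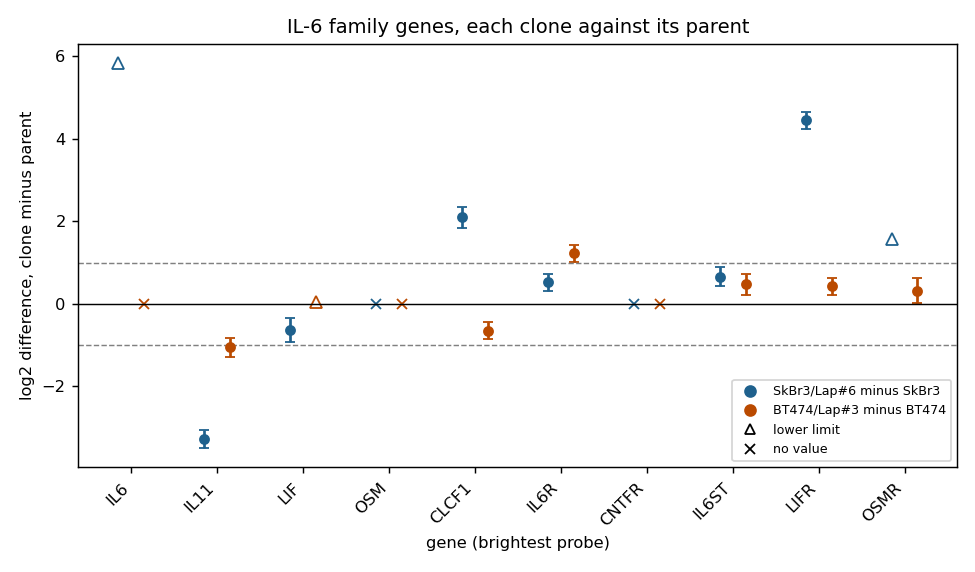
Log2 difference of each clone from its parent (y axis) for the brightest probe of each gene (x axis). Bars are the within-array error, triangles are lower limits, crosses mark genes with no value and dashed lines mark 2-fold. LIFR, IL6, CLCF1 and the limit of OSMR lie above the upper line and IL11 below the lower line for SkBr3/Lap#6, and for BT474/Lap#3 IL6R lies above the upper line and IL11, at -1.05, just below the lower one.

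IL6 encodes the ligand that gives the family its name. Its probe was printed in 10 spots, which averaged 5.93 units for SkBr3, 1695 for SkBr3/Lap#6, 4.80 for BT474 and 8.15 for BT474/Lap#3. The spots of SkBr3/Lap#6 ran from 1590 to 1778 units with a median of 1697, and 10 of 10 were well above background. The spots ran from 3.29 to 9.72 units in SkBr3, from 3.36 to 9.48 in BT474 and from 4.04 to 13.1 in BT474/Lap#3, and 0 of 10 was well above background on each of these arrays. So the spots of SkBr3/Lap#6 did not overlap those of any other array, and the other 3 arrays have no order. The spread of the 10 spots in SkBr3/Lap#6 was a log2 SD of 0.0554, and 264 probes printed 10 times had a median SD of 0.0750 to 0.0809. Spots of 1 array share 1 RNA sample. The difference was a lower limit of 5.83 on the log2 scale, or at least 56.9-fold, set by the lowest signal well above background on the array of SkBr3. For BT474/Lap#3 there is no fold, because IL6 was well above background on neither array. In such whole-culture RNA, more cells that express a gene and more RNA per cell cannot be told apart.

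**Figure D3:**
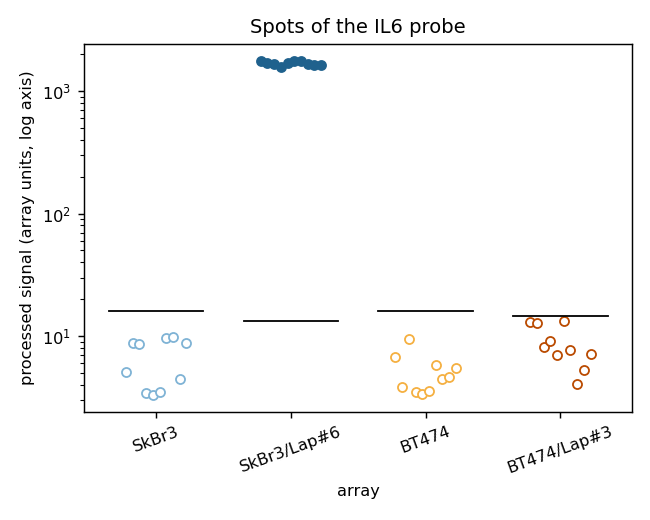
Processed signal (y axis, log scale, array units) of the 10 spots of the IL6 probe on each array (x axis), with open points not well above background and a line at the lowest signal well above background on that array. The 10 spots of SkBr3/Lap#6 lie between 1590 and 1778 units and the spots of the other 3 arrays lie below the lines.

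IL11 encodes a ligand that, with its own alpha receptor, also signals through gp130. It was measured at 305 units in SkBr3 and 58.3 in its clone, and 70.7 in BT474 and 49.5 in its clone, above background on all 4 arrays. SkBr3 stood alone at the top. IL11 was 9.71-fold lower in SkBr3/Lap#6 than in SkBr3 (log2 -3.28 ± 0.22) and 2.07-fold lower in BT474/Lap#3 than in BT474 (-1.05 ± 0.24). The second value lies close to the 2-fold threshold and ran from -1.30 to -0.68 over the alternative settings, with the call lost under 4 of them. Once scaled, the 2 clones differed by 0.07 ± 0.23, which is within the error.

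CLCF1 encodes a ligand of the CNTF receptor complex. Its signals were 38.1 units in SkBr3 against 304 in SkBr3/Lap#6, with 179 in BT474 against 166 in BT474/Lap#3. It was 4.30-fold higher in SkBr3/Lap#6 than in SkBr3 (log2 2.10 ± 0.26) and below 2-fold in BT474/Lap#3, with a log2 difference of -0.65 ± 0.21. SkBr3 stood alone at the bottom, and SkBr3/Lap#6 and BT474 differed by 0.07 ± 0.21 once scaled, within the error. The value in SkBr3/Lap#6 ran from 1.40 to 2.26 over the alternative settings.

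LIF and OSM, ligands of LIFR and OSMR complexes, were dim. LIF was at 39.0 units in SkBr3, 46.9 in SkBr3/Lap#6, 22.3 in BT474, where it was not well above background, and 33.4 in BT474/Lap#3. Its log2 difference was -0.63 ± 0.28 in SkBr3/Lap#6, and a lower limit of 0.05 in BT474/Lap#3, so neither was called. A second LIF probe read 3.78 to 7.74 units and was not well above background on any array. OSM was at 7.48 units for SkBr3, 12.1 for SkBr3/Lap#6, 11.9 for BT474 and 17.9 for BT474/Lap#3. It was above background on the last array only and has no fold in either comparison.

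Among the binding receptors, IL6R was the 1 gene called higher in BT474/Lap#3. Its signals were 1335 units in SkBr3 and 3563 in its clone, and 336 in BT474 and 1140 in its clone. The log2 difference was 1.23 ± 0.20 in BT474/Lap#3, or 2.34-fold, and 0.52 ± 0.20 in SkBr3/Lap#6, or 1.44-fold and not called. Whether the clones differ in this was not tested. Both clones lay above their parents by more than the within-array error, and the 2 parents differed more than either clone from its parent. CNTFR, which binds CNTF and CLCF1, was at 4.08 units in SkBr3 against 3.13 in SkBr3/Lap#6, with 4.42 in BT474 against 18.8 in BT474/Lap#3. It was above background on the last array only, and its limit was under 1, which gives no fold.

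IL6ST encodes gp130, the chain common to the family. It was at 46.9 units for SkBr3, 138 for SkBr3/Lap#6, 37.6 for BT474 and 75.5 for BT474/Lap#3, all above background. Its log2 differences were 0.66 ± 0.23 in SkBr3/Lap#6 and 0.47 ± 0.24 in BT474/Lap#3, neither called. The parents differed by 0.37 ± 0.26 and SkBr3 and BT474/Lap#3 by 0.09 ± 0.23. IL6ST was thus the gene of the 6 with the narrowest range over the 4 arrays.

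LIFR, the LIF receptor chain that partners gp130, was read by 3 probes. The brightest gave 145 units in SkBr3 and 5901 in its clone, and 336 in BT474 and 656 in its clone. It was 21.9-fold higher in SkBr3/Lap#6 than in SkBr3 (log2 4.45 ± 0.21), which lay at percentile 98.6 of the differences of 11770 genes. The second probe gave 7.57 units in SkBr3, not well above background, 520.0 in its clone, 39.8 in BT474 and 70.9 in BT474/Lap#3, so that the clone was at least 17.5-fold higher than SkBr3. The dimmest probe was above background in SkBr3/Lap#6 alone, at 148 units against 3.21 in SkBr3, 6.40 in BT474 and 13.1 in BT474/Lap#3, which made it at least 4.98-fold higher. All 3 probes thus called LIFR higher in SkBr3/Lap#6. For BT474/Lap#3 the brightest probe gave a log2 difference of 0.43 ± 0.20 and the second 0.30 ± 0.27, neither called.

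OSMR, the OSM receptor chain, is the neighbor of LIFR on chromosome 5. Its first probe gave 4.27 units in SkBr3 against 88.5 in SkBr3/Lap#6, with 26.5 in BT474 against 47.9 in BT474/Lap#3, and its second gave 3.36, 75.8, 20.6 and 36.5 units in the same order. SkBr3 was not well above background on either probe, and the other 3 arrays were. OSMR was thus, for SkBr3/Lap#6 against its parent, at least 2.97-fold higher by the first probe and at least 2.55-fold by the second. In BT474/Lap#3 the log2 differences were 0.32 ± 0.30 and 0.29 ± 0.33, and the first became 0.10 with quantile normalization and -0.07 with normexp background correction and quantile normalization together, so no direction is given. Both probes lay under 100 units on all arrays, and with 16 units added to every signal the limit in SkBr3/Lap#6 was 0.82 on the log2 scale, below 2-fold.

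The parental lines differed in the family as well. IL6R was 4.13-fold higher in SkBr3 than in BT474 (log2 2.05 ± 0.20) and IL11 4.48-fold higher (2.16 ± 0.22). LIFR was 2.23-fold lower (-1.16 ± 0.21) and CLCF1 4.52-fold lower (-2.18 ± 0.26). That is 2 of the 6 genes higher and 2 lower, against 18.6% and 19% of all 12136 genes. Without the filter it was 2 of 10 higher and 2 of 10 lower, against 14.8% and 15.2%. For LIFR, SkBr3 stood at the bottom of the 4 arrays and SkBr3/Lap#6 at the top, and for IL11 SkBr3 stood at the top and both clones, within the error of each other, at the bottom. This comparison and that of SkBr3/Lap#6 share the array of SkBr3.

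For each gene called in a clone that passed the filter, which leaves out OSMR, the genes with the most similar profile were sought. Likeness was the distance between centered log2 profiles over the 4 arrays, among 14323 genes above background on at least 1 array. Nearest to IL6 were CSF2RA, CYP26B1 and LAIR2, each above background in SkBr3/Lap#6 alone, so that this likeness and its order rest on 1 measured array and the other 3 arrays only bound it. CSF2RA encodes a chain of the GM-CSF receptor and read 1759 units there. Nearest to LIFR were CD83 (distance 0.482), NUAK2 (0.486) and IL27RA (0.488), and the last of these encodes another cytokine receptor of the wider family. Nearest to CLCF1 were MAPK12 (0.2002) and NETO2 (0.268), and those nearest to IL6R were TTC7A (0.165), APOL6 (0.197) and PLEKHF1 (0.261). Those nearest to IL11 were CRISP2 (0.312), PRKCD (0.339) and ECHDC1 (0.349), of which CRISP2 and ECHDC1 were above background on 1 array only. Where all 4 arrays were above background, the likeness still rests on 4 points.

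Around the 10 genes, 67 further genes of the pathway were listed by role, of which 64 had a named probe and 52 passed the filter. In SkBr3/Lap#6, 14 of the 52 were called higher and 6 lower, against 13.4% and 12.9% of all genes, and in BT474/Lap#3, 8 were called higher and 8 lower, against 8.56% and 5.16%. The medians were 0.23 over the 52 genes in SkBr3/Lap#6 and 0.08 over the 48 with a value in BT474/Lap#3, on the log2 scale. Of the genes called higher in SkBr3/Lap#6, A2M, GAB1, ICAM1, IL27RA, SAA1, SAA2 and STAT5A passed the filter through that array alone. Without the filter, 14 of the 64 were higher and 10 lower there, against 10.5% and 11.2% of all genes (median 0.08 over 58 genes). In BT474/Lap#3 it was then 8 higher and 8 lower, against 7.03% and 4.83% (median 0.10 over 53 genes). Over all 12136 genes that passed the filter, 299 were called higher in both clones and 147 lower in both. Among the 52, 5 were higher in both clones (A2M, CEBPD, FOS, PIM1 and SOCS3) and 4 lower in both (CISH, IL27, SERPINA1 and SERPINA3). Of these, PIM1, CISH and SERPINA3 kept both calls under all 11 alternative settings, and the other genes lost 1 call or both under 2 to 4 of them.

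Of the other ligands and receptors of the wider family, 4 of 9 passed, with 1 called higher and 2 lower in SkBr3/Lap#6 and 0 higher and 1 lower in BT474/Lap#3. The shares of all genes were 13.4% higher and 12.9% lower in SkBr3/Lap#6, and 8.56% and 5.16% in BT474/Lap#3. Without the filter, 1 of the 7 with a named probe was higher and 3 lower in SkBr3/Lap#6, against 10.5% and 11.2% of all genes. IL27RA, the IL-27 receptor chain that pairs with gp130, was at 17.8 units for SkBr3, 664 for SkBr3/Lap#6, 44.04 for BT474 and 55.2 for BT474/Lap#3, with log2 differences of 4.32 for the first clone and -0.21 for the second. Its ligand subunit IL27 was lower in both clones, at -2.37 and -1.01, and the second call was lost under 4 of the alternative settings.

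Among 10 signal transducers, 2 were called higher and 0 lower in SkBr3/Lap#6, and 1 higher and 0 lower in BT474/Lap#3. Beside this, 13.4% of all genes were higher and 12.9% lower in SkBr3/Lap#6, and 8.56% and 5.16% in BT474/Lap#3. STAT5A was at 38.7 units in SkBr3 and 314 in SkBr3/Lap#6, a log2 difference of 2.12, and not well above background in BT474 or its clone. GAB1, a docking protein, differed by 1.67 in SkBr3/Lap#6. JAK2, a kinase bound to gp130, was at 25.3 units in BT474 and 245 in BT474/Lap#3, a log2 difference of 2.73, and at -0.19 in SkBr3/Lap#6. STAT3 itself, named here for its role after its values were seen, was not called, at 0.80 and 0.73 in the clones of SkBr3 and BT474.

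Among 7 negative regulators, 1 was called higher and 2 lower in SkBr3/Lap#6, and 1 higher and 1 lower in BT474/Lap#3. All genes had shares of 13.4% higher and 12.9% lower in SkBr3/Lap#6, and 8.56% and 5.16% in BT474/Lap#3. SOCS3, the feedback inhibitor of gp130 signaling, was at 164 units in SkBr3 and 1659 in its clone, and 116 in BT474 and 412 in its clone. Its log2 differences were 2.44 and 1.29, higher in both clones, though the second call was lost with the mean over its probes, with normexp and at a 3-fold threshold. CISH, another SOCS family member, was lower in both, at -2.42 and -1.84, and PIAS3, an inhibitor of STAT3, was lower in SkBr3/Lap#6 at -1.15, a call lost with median scaling, with the mean over its probes and at a 3-fold threshold. ADAM10 and ADAM17, the proteases that shed IL6R from the cell surface, were called in neither clone.

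Of 30 targets of IL-6 and STAT3, 22 passed the filter. Of these, 7 were called higher and 2 lower in SkBr3/Lap#6 with a median of 0.23. In BT474/Lap#3, 4 were called higher and 6 lower, with a median of -0.20 over the 19 genes with a value. Over all genes, 13.4% were higher and 12.9% lower in SkBr3/Lap#6, with a median of -0.05. For BT474/Lap#3 the shares were 8.56% and 5.16%, with a median of -0.08. A2M, ICAM1, SAA1 and SAA2 passed the filter through SkBr3/Lap#6 alone. Without the filter, 7 of the 30 were higher and 4 lower in SkBr3/Lap#6 (median 0.12 over 26 genes), against 10.5% and 11.2% of all genes. In BT474/Lap#3, 4 were then higher and 6 lower (median -0.04 over 22 genes), against 7.03% and 4.83%. The acute-phase genes differed in direction. A2M was higher in both clones, with lower limits of 5.02 and 1.92 on the log2 scale, and SAA1 and SAA2 differed by 3.99 and 3.56 in SkBr3/Lap#6, though these 2 genes are near-identical and their probes may share signal. SERPINA3 and SERPINA1, also acute-phase genes, were lower in both clones, at -2.83 and -1.63 for SERPINA3 and -1.94 and -1.06 for SERPINA1. The first call of SERPINA1 was lost with normexp, and the second with the 75th percentile over probes well above background and at a 3-fold threshold. ICAM1, an adhesion molecule, differed by 4.998 in SkBr3/Lap#6 and was not above background in BT474 or its clone. PIM1, a kinase, was higher in both at 3.15 and 1.64. TIMP1, a metalloprotease inhibitor, was at 85.9 units in BT474 and 6.86 in BT474/Lap#3, not well above background there, at least 8.51-fold lower, and differed by 0.49 in SkBr3/Lap#6.

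Of 11 genes for the NF-κB, C/EBP and AP-1 factors, CREB1 and SP1, which are known to act on the IL6 promoter, 9 passed, with 4 called higher and 0 lower in SkBr3/Lap#6 (median 0.71), against 3 higher and 1 lower in BT474/Lap#3 (median 0.14). Shares of all genes were 13.4% higher and 12.9% lower in SkBr3/Lap#6 (median -0.05), and 8.56% and 5.16% in BT474/Lap#3 (median -0.08). Without the filter, 4 of 10 were higher and 1 lower in SkBr3/Lap#6 (median 0.41), against 10.5% and 11.2% of all genes. The gene added as lower was FOSL1 (log2 -1.11), above background on all 4 arrays but under 100 units. In BT474/Lap#3 the calls stayed at 3 higher and 1 lower (median 0.28), against 7.03% and 4.83%. The 4 in SkBr3/Lap#6 were CEBPD at 2.63, FOS at 2.05, RELB at 2.02 and JUN at 1.37. In BT474/Lap#3, where IL6 was not well above background, FOS was at 1.46, REL at 1.39 and CEBPD at 1.20, and CEBPB was lower at -1.90. The calls of FOS and REL there were lost with normexp, that of CEBPD with median scaling, and all 3 at a 3-fold threshold. RELB, an NF-κB subunit, was at 6209 units in SkBr3 against 46931 in SkBr3/Lap#6, with 1306 in BT474 against 1570 in BT474/Lap#3, so that its differences were 2.02 and -0.27. CEBPB was not called in SkBr3/Lap#6, at 0.05. CEBPD and CEBPB also count among the targets above.

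**Figure D4:**
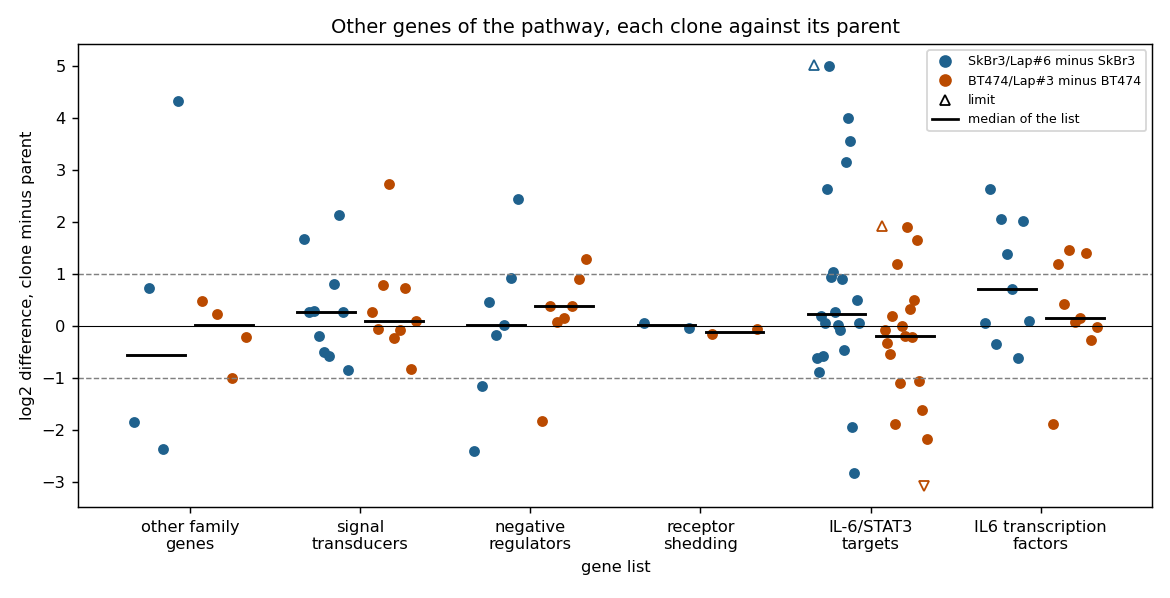
Log2 difference of each clone from its parent (y axis) for the genes of each pathway list that passed the filter (x axis), 1 point per gene, with triangles for limits, black lines for medians and dashed lines at 2-fold. In SkBr3/Lap#6 the median of the IL6 transcription factors is 0.71 and that of the IL-6 and STAT3 targets 0.23, and in BT474/Lap#3 they are 0.14 and -0.20. Without the filter, which is not drawn, these medians are 0.41 and 0.12 in SkBr3/Lap#6 and 0.28 and -0.04 in BT474/Lap#3.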

How the data were processed

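Gene expression was profiled by the authors on 4 Agilent 4 × 44 K arrays, 1 array per state, from total RNA. The authors deposited, per the file headers, the processed signal of each spot, an intensity that Feature Extraction 10.1.1.1 had corrected for background and spatial trend, with its error and flags (well above background, saturated, outlier). Whether the dye and normalization that the study's methods name for arrays apply to these files is not given in the sources used here, since the file headers show 1 channel. The deposited table of log2 values per probe was used as an alternative. Differences between its columns and between processed signals deviated by 0.00141 at most in the median and 0.616 at most for a probe (log2 scale). Its column medians were 0.125, -0.198, 0.106 and -0.0457 for SkBr3, its clone, BT474 and its clone, and its constant per array and centering per probe are not stated.

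Replicate spots were averaged per probe on the log2 scale, and values were set relative to the 75th percentile of 41000 probes on that array. A probe was well above background when the software had marked 50% or more of its spots. Where 1 array of a pair was not, its signal was replaced by the lowest signal well above background on that array, if that was higher, and the difference is a limit; where neither array was, or the limit was under 1, no fold is given. A gene was represented by its brightest probe and kept when it reached 100 units on at least 1 array. Probes were named through RefSeq accessions in the annotation of GRCh38.p14, which named 23680 of 41000 probes, with 16422 genes, and IL11RA, CNTF and NFKB2 had no named probe. Promoters came from RefSeq, and positions are those of GRCh38.p14, not of the array's design. The number of arrays limits the precision, and a clone and its parent have 1 array each, so these comparisons give no p-value. A fit of resistance across both lines with the line as a term, which leaves 1 residual degree of freedom, was not run here. The genes of the family and the pathway lists were chosen with earlier results of these data known. From each list, the genes called in either clone were named, at most 6, by the size of the change; further genes were named where called in both clones. Some genes that these rules select are not reported here, and they remain in the counts. The 2-fold call was tested on simulated arrays. That test raised no dim probes and did not cover the choice of probe or the signal filter. Alternatives were other scalings, quantile normalization, normexp background correction of median pixel signals (offset 50), the deposited log2 table, 16 units added, no signal filter, both arrays well above background, outlier spots left out, 3-fold and the mean over probes. Python 3.11.15, numpy 2.4.6, pandas 2.3.3, matplotlib 3.10.9, R 4.3.3 and limma 3.58.1 (normalization only) were used.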

Additional observations from a re-analysis of the deposited data

Results flagged for a closer look

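Genes of the family and its pathway lists that were called in 1 clone and had the opposite sign in the other are given here as log2 differences from the parent, for SkBr3/Lap#6 and then BT474/Lap#3. With 1 array per state the difference between the clones was not tested. CLCF1, the ligand, was at 2.10 and -0.65. The NF-κB subunits RELB and REL also went opposite ways, RELB at 2.02 and -0.27 and REL at -0.62 and 1.39. PIAS3 was at -1.15 and 0.37. IL4R, a cytokine receptor, was at 0.95 and -1.09, and TIMP1 at 0.49 and, as a limit, -3.09.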

How the results depend on the processing

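Over 11 alternatives, of which LIF in BT474/Lap#3 had a value under 7, none of the 15 member values in the clones was called in the opposite direction. Of the counts for the family and for the pathway genes as a whole and the shares of all genes, 158 of 176 stayed within 1.5 times their value; some counts of single pathway lists also moved by more than that. No member was called lower in BT474/Lap#3 (0, where IL11 had been called) with the 75th percentile over probes well above background, normexp with quantile normalization, 16 units added, or 3-fold. At 3-fold, 0 members were higher in BT474/Lap#3 and 1 lower between SkBr3 and BT474, and 4 pathway genes were higher and 5 lower in BT474/Lap#3. Of all genes, 8.08% were then higher and 6.47% lower in the clone of SkBr3, 4.67% and 2.18% in that of BT474, and 10.8% and 11.8% between SkBr3 and BT474; fewer genes pass a stricter threshold by construction. Without the filter, 10 pathway genes were lower in SkBr3/Lap#6, where more genes were counted. In BT474/Lap#3, 5 pathway genes were higher with normexp, 5 were lower with the percentile over probes well above background, and 8.21% of all genes were lower with median scaling, and the cause was not tested. The IL6 limit in SkBr3/Lap#6 ran from 4.05 (normexp) to 5.99 (median scaling), and IL6 was not called where both arrays had to be above background. LIFR ran from 4.03 to 4.76 in SkBr3/Lap#6, and IL6R from 1.01 to 1.33 in BT474/Lap#3. Pairing by replicate number was not possible, because the labels give each state the 1 replicate number, so the states share fewer than 2 numbers. Each clone was compared with its own parental line, and a fit across both lines was not run. No array could be left out of a comparison of 1 against 1. Signal over background limits IL6 in SkBr3, BT474 and BT474/Lap#3, OSMR in SkBr3, LIF in BT474, and OSM and CNTFR on all but BT474/Lap#3.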
